A study of Homo sapiens with 10 samples.

Results

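A set of 10 immediate-early genes, EGR1, EGR2, EGR3, NR4A1, KLF4, KLF6, IER2, IER3, IER5 and MYC, was followed through a nutlin-3a time course, and its members were taken by gene symbol from the RNA-Seq and the Ribo-Seq table. Of these, 9 had a row in both tables, among 11258 transcripts that the tables share, and IER3 was not analysed here. The cells were BJ fibroblasts, human primary fibroblasts immortalised by expression of hTERT, a single line grown in medium with fetal calf serum. Nutlin-3a is a small molecule that occupies the p53-binding pocket of MDM2, so that p53 is no longer degraded. A control and cells at 2, 4, 6 and 19 h of nutlin-3a were each profiled by RNA-Seq of poly(A) RNA and by Ribo-Seq, which sequences the mRNA fragments covered by ribosomes, giving 10 libraries. For Ribo-Seq the cells were treated with cycloheximide, which arrests elongating ribosomes, before lysis. Every group was 1 library, so differences have no replicate check and no p-value, and the errors given cover the counting of reads only.

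Immediate-early genes are transcribed within minutes of a growth factor, serum or stress signal, without the need for new protein, and their mRNAs are usually short-lived. The signal commonly runs through MAP kinases to factors already bound at the promoter, such as the serum response factor, which binds the CArG box, and CREB, which binds the cyclic AMP response element. Most of the encoded proteins are transcription factors that set the next wave of genes, and in fibroblasts the class is best known from the return of resting cells to serum.

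The response elements show how the promoters of these genes differ among themselves. Promoter sequence around annotated starts (RefSeq, GRCh38.p14, 250 bases before to 50 after the start) was matched for 7 of the 9 measured genes, in 10 promoters. EGR3 and MYC had no promoter sequence to search. On either strand, a CArG box was found in 2 genes, EGR1 and EGR2, and in 1.29% of all 35116 promoters of the same length. The motif TGACG, the core of the cyclic AMP response element, was in promoters of 4 genes (EGR1, EGR2, KLF4 and IER2) and in 24.6% of all promoters. The GC box core GGGCGG was in promoters of 5 genes (KLF4, KLF6, EGR2, NR4A1 and IER2) and in 45% of all promoters, and the IER5 promoter held none of the 3 motifs. A gene was counted when any of its promoters held the motif, and EGR2 and NR4A1 had more than a single promoter. The shares are of single promoters, so counts and shares are in unlike units. These are matches of letters only, and binding was not measured. The CArG boxes are printed below in capitals, 5′ to 3′ on the strand of the gene. The promoters of NR4A1, which was also among the members with the largest changes, held no CArG box. The EGR1 windows are at chr5:138465364-138465393 and chr5:138465386-138465415 on the plus strand, and the EGR2 window, at 1 of its 3 annotated starts, is at chr10:62816418-62816447 on the minus strand. In this order, the boxes begin 105, 83 and 71 bases upstream of the start.
EGR1 distal CArG box: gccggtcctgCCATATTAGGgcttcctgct
EGR1 proximal CArG box: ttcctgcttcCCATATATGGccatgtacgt
EGR2 CArG box: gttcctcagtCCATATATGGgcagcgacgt

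Levels are in FPKM, read numbers scaled to transcript length and library total, so RNA levels of different genes can be compared per length. Ribo-Seq values were scaled to the same transcript lengths and not to the coding sequence, so densities of different genes compare only roughly. Ribosome density is the Ribo-Seq FPKM, and translational efficiency (TE) is the log2 ratio of the Ribo-Seq to the RNA-Seq FPKM of the same time. The totals behind the values, recovered as described with the processing, between 23845547 and 27554298 reads for RNA-Seq and between 7744902 and 14460718 for Ribo-Seq, with the smallest at 19 h. CDKN1A, which encodes the p53-induced inhibitor p21, rose in RNA from 68.6 FPKM in the control to 212, 915, 1204 and 1316 FPKM, and MDM2, the p53 ligase, from 14.9 to 36.3, 203, 254 and 259 FPKM, so p53 targets moved in the direction of the labels. All 6 fibroblast markers (COL1A1, COL1A2, COL3A1, VIM, THY1, PDGFRB) were present, with a summed RNA level of 7887 to 10099 FPKM. Of 6 markers of epithelial, endothelial and blood cells, CDH1 and PTPRC had a row, and their sum was 0.079 to 0.253 FPKM. In bulk samples such as these, a change in the share of cells that express a gene and a change in RNA per cell cannot be told apart.

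In both assays EGR1, EGR2, EGR3, NR4A1, IER2 and IER5 differed most from the control in the 2 h library. KLF4, KLF6 and MYC differed most from it in later libraries. In RNA at 2 h, EGR1, EGR2, EGR3 and NR4A1, 4 of the 9 genes, were at least 2-fold above the control. No member was 2-fold below. Of the 7015 tested genes, 0.927% were 2-fold higher and 0.941% were changed 2-fold in either direction. In ribosome density 6 of 9 were 2-fold higher, the same 4 with IER2 and IER5, against 2.12% higher and 2.25% changed either way among all tested genes. The median log2 change of the 9 genes at 2 h was 0.96 in RNA, beside -0.045 for all tested genes, and 1.55 in density, beside 0.016. The RNA level was highest at 2 h in 7 of 9 genes, and so was the density, the exceptions being KLF4 and KLF6. For all ratios, values below 1 FPKM were set to 1. A gene was tested when its level reached 5 FPKM in some RNA-Seq library and also in some Ribo-Seq library. EGR2 did not reach this level, EGR3 did only through its 2 h libraries, NR4A1 density only at 2 h and KLF4 density only at 19 h. Such a gene had to differ between libraries to pass, so members were counted over all 9 measured genes. Comparisons with the control share that library, and the steps between treated libraries are given further down. No library of untreated cells matches the treated times, so an effect of handling apart from nutlin-3a was not tested. Whether the control and the 2 h library share a sequencing run is not known.

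**Figure D1:**
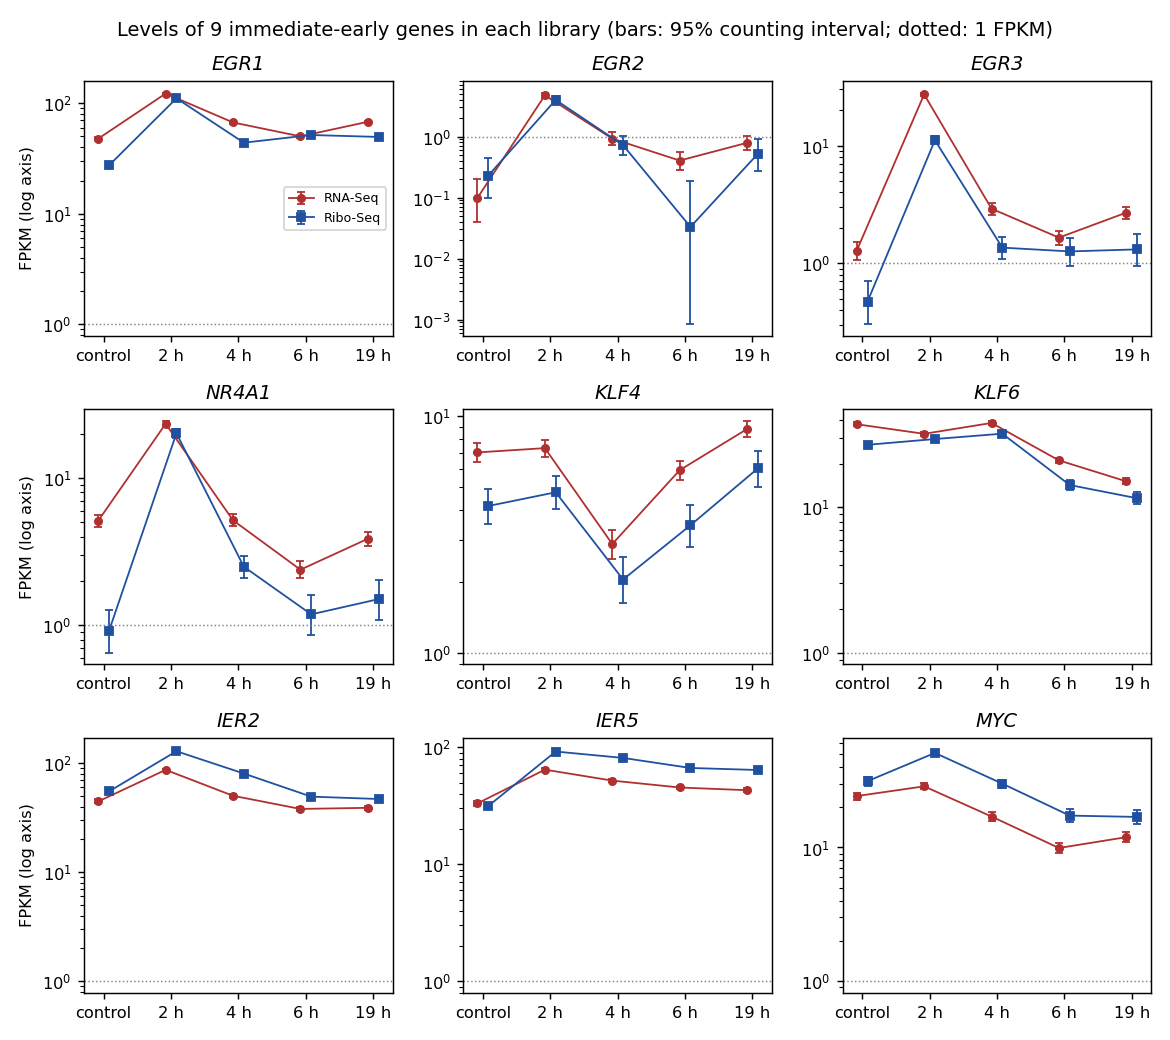
FPKM (log axis, own range in each panel) of the 9 genes in the control and at 2, 4, 6 and 19 h, with circles for RNA-Seq, squares for Ribo-Seq and bars for the 95% exact Poisson interval of the read number. EGR1, EGR2, EGR3 and NR4A1 peak at 2 h in both assays, whereas KLF4 is lowest at 4 h and KLF6 lowest at 19 h.

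The EGR proteins are zinc-finger transcription factors that share a GC-rich binding site. EGR1 (ENSG00000120738), the most abundant of the 3 in RNA and density at every time, had RNA levels of 47.8 FPKM in the control and 122, 67.0, 50.1 and 67.9 FPKM at 2, 4, 6 and 19 h. Its RNA was 2.56-fold higher at 2 h (log2 change 1.36, counting SE 0.028), and later the log2 changes were 0.49, 0.069 and 0.51. The 2 h library stood alone, the libraries of 19 and 4 h did not differ beyond their counting intervals, and neither did those of 6 h and the control. Ribosome density of EGR1 was 27.4 FPKM in the control and 111, 43.9, 51.6 and 49.5 FPKM in the treated libraries. This was 4.04-fold higher at 2 h (log2 change 2.01, SE 0.051), and the density did not return to the control level, with log2 changes of 0.68, 0.91 and 0.85 from 4 to 19 h.

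EGR3 (ENSG00000179388) is a relative of EGR1 with a nearly identical zinc-finger region. With the floor of 1 FPKM and no filter, its RNA change at 2 h was the largest of all 11258 transcripts in both tables. With the values as deposited, the change of EGR2 was larger (5.58 on the log2 scale). The RNA of EGR3 was at 1.28 FPKM in the control, 27.2 at 2 h and 2.91, 1.65 and 2.69 FPKM at 4, 6 and 19 h. This was 21.3-fold higher at 2 h (log2 change 4.41, SE 0.13). The control value rests on 132 reads and that of 2 h on 3181. Its later log2 changes of 1.19, 0.37 and 1.08 left it above the control, although at 6 h the counting interval of its level overlapped that of the control. The density of EGR3 was 0.471, 11.1, 1.36, 1.26 and 1.31 FPKM in the same order, from 24 reads in the control and 571 at 2 h. With the control raised to 1 FPKM the log2 change at 2 h was 3.47, rank 3 of the 11258 transcripts, and with the values as deposited it was 4.56 (SE 0.30). The other 3 density values were alike within their counting intervals and lay above the control, by 1.53, 1.42 and 1.48 on the log2 scale with the values as deposited but by 0.44, 0.33 and 0.39 with the floor.

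EGR2 (ENSG00000122877), known from myelination and early hindbrain patterning, was close to silent outside the 2 h library. Its RNA was 0.099 FPKM in the control, 4.74 at 2 h and 0.924, 0.404 and 0.789 FPKM later, or 7, 379, 67, 33 and 61 reads. The ratio at 2 h was 4.74-fold with the floor and 47.9-fold with the values as deposited, which is 5.58 on the log2 scale with an SE of 0.55. All values lay below 5 FPKM, so that a floor of 5 FPKM left no change in either assay. Density was 0.229, 3.98, 0.722, 0.033 and 0.522 FPKM, from 8, 140, 31, 1 and 12 reads. Both assays were highest at 2 h by a wide margin, and in density the order of the other 4 libraries was not resolved between neighbours at this depth.

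NR4A1 (ENSG00000123358), which encodes the orphan nuclear receptor Nur77, moved both ways in RNA. Its RNA level was 5.14 FPKM in the control and 23.4, 5.16, 2.39 and 3.87 FPKM in the treated libraries. Thus it was 4.55-fold higher at 2 h (log2 change 2.19, SE 0.076), level with the control at 4 h (0.0078) and below it at 6 h, at 0.465 of the control (log2 change -1.10, SE 0.12). The 2-fold call at 6 h was lost with a pseudocount of 1 FPKM (-0.86), with a floor of 5 FPKM (-0.039) and with a sliding cut-off set by the local spread of changes. The density of NR4A1 was 0.92 FPKM in the control, from 38 reads, and 20.1 at 2 h, from 838 reads. Its log2 change of 4.33 with the floor was the largest in density at 2 h among the 11258 transcripts, again with no filter. As deposited the change was 4.45 (SE 0.24), less than the 4.56 of EGR3. At 4, 6 and 19 h the density was 2.50, 1.19 and 1.51 FPKM, of which the 4 h value was above the control (log2 change 1.32) and the counting interval of the 6 h value overlapped that of the control.

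The genes of the IER group had higher levels in the control and smaller changes. IER2 (ENSG00000160888), a nuclear protein of the immediate-early response, had RNA levels of 44.6, 86.8, 50.2, 38.05 and 39.0 FPKM from control to 19 h, 1.95-fold of the control at 2 h (log2 change 0.96, SE 0.037). Its density of 55.1, 129, 80.4, 49.3 and 46.9 FPKM was 2.34-fold higher at 2 h (log2 change 1.22, SE 0.047). In both assays IER2 was highest at 2 h, next highest at 4 h and slightly below the control at 6 and 19 h. In density, the counting interval at 6 h overlapped that of the control.

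IER5 (ENSG00000162783), a relative of IER2 that is linked to the heat-shock response, was above its control in each treated library of both assays. RNA levels were 33.2 FPKM in the control and 64.4, 51.9, 45.3 and 43.0 FPKM at 2, 4, 6 and 19 h, with log2 changes of 0.96, 0.65, 0.45 and 0.37 (SE 0.040 to 0.044). Density went from 31.5 FPKM to 92.0, 81.1, 66.6 and 64.0 FPKM, so that IER5 was the member with a 2-fold higher density at every time (log2 changes 1.55, 1.36, 1.08 and 1.02, SE 0.056 to 0.065). The decline from 2 h was gradual, and the libraries of 6 and 19 h did not differ beyond their counting intervals in either assay. The RNA changes of IER2 and IER5 at 2 h were just under the 2-fold limit, and with changes centred on all tested genes 6 members passed it.

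The 2 Krüppel-like factors, zinc-finger proteins that bind GC-rich promoter elements, did not share the peak at 2 h. KLF4 (ENSG00000136826), known for its role in epithelial differentiation and reprogramming, had RNA levels of 7.02 FPKM in the control and 7.32, 2.88, 5.91 and 8.82 FPKM at 2, 4, 6 and 19 h. The 4 h library was the lowest, at 0.41 of the control (log2 change -1.29, SE 0.12), and with a floor of 5 FPKM this change was -0.49. Density followed the same order, with 4.17, 4.77, 2.04, 3.46 and 6.01 FPKM and a log2 change of -1.03 (SE 0.20) at 4 h. At 2 and 6 h the counting intervals of KLF4 overlapped those of the control in both assays, and at 19 h its RNA was the highest of the 5 libraries (log2 change 0.33, SE 0.087).

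KLF6 (ENSG00000067082), a widely expressed member of the family, declined late. Its RNA was at 37.3, 32.1, 38.1, 21.1 and 15.1 FPKM from control to 19 h, with log2 changes of -0.83 (SE 0.036) at 6 h and -1.30 (SE 0.040) at 19 h. The density of 27.0, 29.5, 32.2, 14.3 and 11.6 FPKM changed alike, by -0.92 (SE 0.067) and -1.22 (SE 0.080). The 3 early libraries lay together above the libraries of 6 and 19 h in both assays.

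MYC (ENSG00000136997), the transcription factor that drives growth and ribosome production, had its highest level at 2 h and was 2-fold lower in RNA at 6 and 19 h. RNA levels were 24.2 FPKM in the control, 28.6 at 2 h and 17.0, 9.91 and 11.9 FPKM at 4, 6 and 19 h. The log2 changes were 0.24 (SE 0.058), -0.51 (SE 0.067), -1.29 (SE 0.077) and -1.02 (SE 0.074), and no neighbours in the order of the RNA levels overlapped in their counting intervals. At 19 h the change was close to the 2-fold limit, and it was below it with a pseudocount (-0.96), with centring on all tested genes (-0.95) or on genes of like length (-0.93), and with the sliding cut-off. Density was 31.3, 50.9, 30.0, 17.3 and 16.9 FPKM, with log2 changes of 0.70, -0.062, -0.85 and -0.89 (SE 0.069 to 0.11), none of them 2-fold. The density of MYC at 4 h overlapped the control in its counting interval, while the RNA at 4 h did not, and both were lowest at 6 and 19 h.

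**Figure D2:**
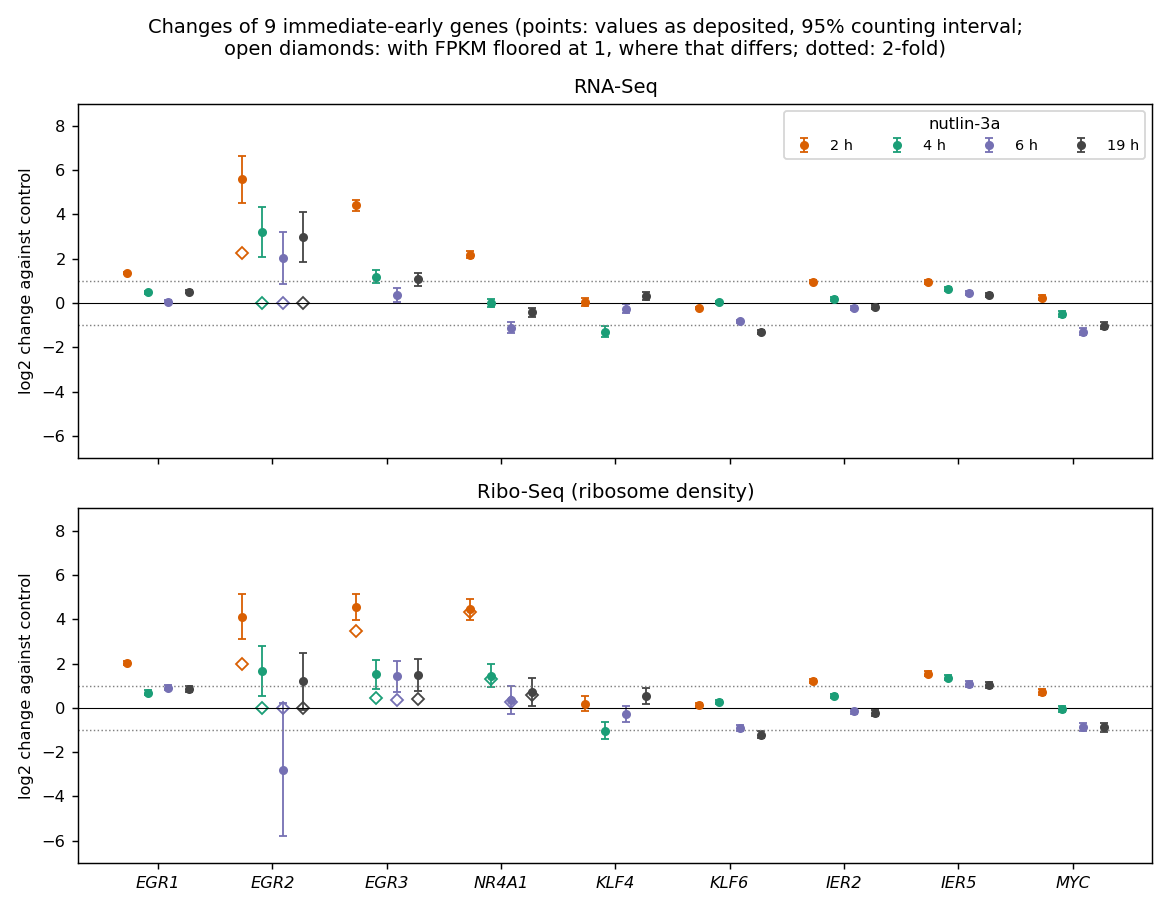
Log2 change of RNA (upper panel) and ribosome density (lower panel) against the control for the 9 genes, coloured by hours of nutlin-3a, with points for the values as deposited, bars for the 95% counting interval, open diamonds for values floored at 1 FPKM where these differ, and dotted lines at 2-fold. The floor changes EGR2 most, from 5.58 to 2.24 in RNA at 2 h, and leaves EGR1, KLF4, KLF6, IER2, IER5 and MYC as they are.

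Beyond 2 h, counts of 2-fold changes among the 9 genes were small. In RNA at 4 h, 1 member was higher (EGR3) and 1 lower (KLF4), beside 1.41% higher and 0.684% lower of the tested genes. At 6 h none was higher and 2 were lower (NR4A1 and MYC), beside 5.39% lower and 7.14% changed either way, and at 19 h 1 was higher (EGR3) and 2 lower (KLF6 and MYC), beside 2.49% higher and 7.1% lower. In density at 4 h, NR4A1 and IER5 were higher and KLF4 lower, beside 2.58% higher and 0.527% lower. At 6 h IER5 alone was higher and none was lower, beside 5.26% higher and 13.3% changed either way, and at 19 h IER5 was higher and KLF6 lower, beside 6.22% and 14.9%. The sliding cut-off passed 6 members in RNA and 6 in density at 2 h, beside 4.73% and 6.36% of the tested genes. It passed 3 and 3 at 4 h (6.22% and 6.39%), 1 and 0 at 6 h (6.69% and 7.04%) and 1 and 0 at 19 h (5.99% and 6.03%). With a floor of 5 FPKM or a pseudocount of 1 FPKM the 2-fold calls of EGR3 RNA at 4 and 19 h, KLF4 density at 4 h and NR4A1 density at 4 h were lost, and the pseudocount also ended that of IER5 density at 19 h. The medians of the 9 genes returned to 0.029, -0.23 and 0 in RNA at 4, 6 and 19 h, whereas in density they were 0.44, 0 and 0.39, where the medians of all tested genes were 0.10, -0.020 and -0.19.

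**Figure D3:**
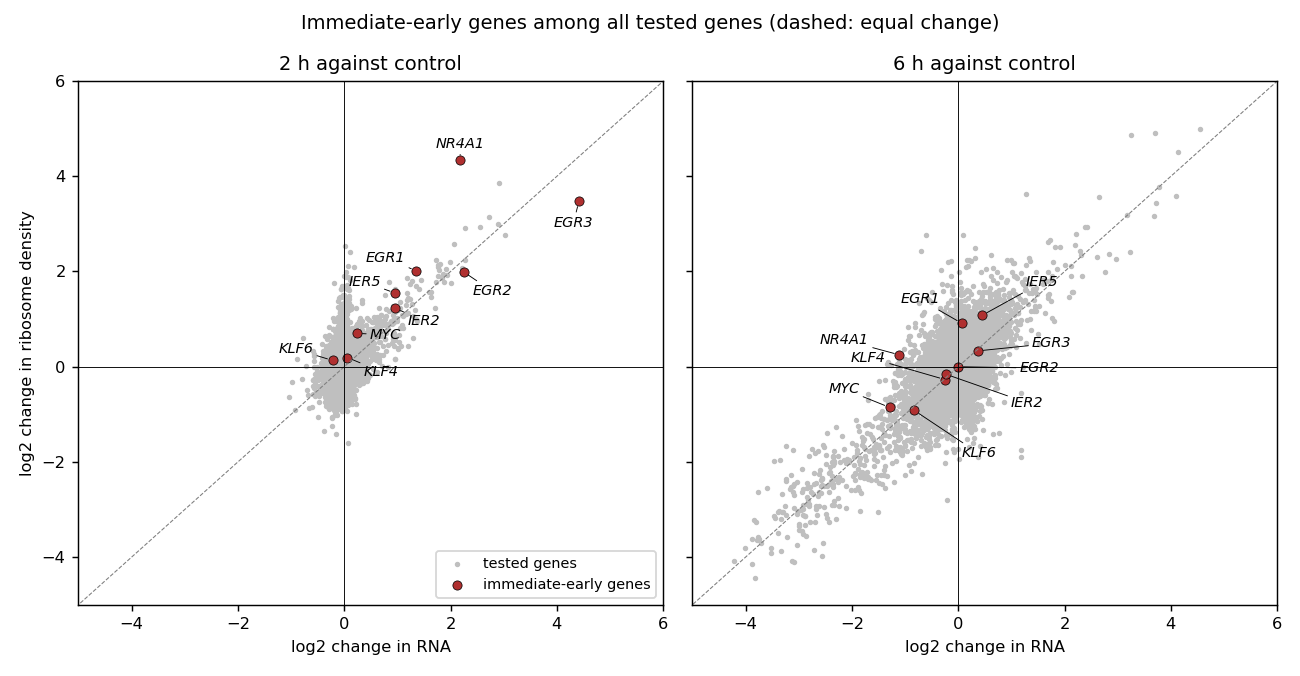
Log2 change in RNA (horizontal axis) against log2 change in ribosome density (vertical axis) at 2 h (left) and 6 h (right), with grey points for the 7015 tested genes, red points for the 9 genes (values floored at 1 FPKM) and a dashed line of equal change. At 2 h EGR3 lies farthest to the right at 4.41 and NR4A1 highest at 4.33, and at 6 h the RNA changes of the 9 genes lie between -1.29 and 0.45.

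The steps between treated libraries do not use the control. From 2 to 4 h the RNA of 8 of 9 genes was lower, by 2-fold or more in 4 of them, while 0.969% of the tested genes were 2-fold lower and 1.77% changed either way. The log2 steps of these 4 were -2.24 for EGR2, -3.23 for EGR3, -2.18 for NR4A1 and -1.35 for KLF4. In density 5 genes were 2-fold lower at 4 h than at 2 h, beside 1.55% of the tested genes lower and 3.48% changed either way, with steps of -1.33 for EGR1, -1.99 for EGR2, -3.03 for EGR3, -3.01 for NR4A1 and -1.22 for KLF4. KLF6 was the gene that was not lower in either assay. From 4 to 6 h the RNA of NR4A1 fell further (-1.11) and that of KLF4 went back up (1.04), the 2 steps that reached 2-fold, beside 4.23% of the tested genes lower and 0.969% higher. In density, NR4A1 (-1.07) and KLF6 (-1.17) were 2-fold lower at 6 h than at 4 h, beside 7.48% lower and 9.96% changed either way. Between 6 and 19 h no member changed 2-fold in either assay, while 1.88% of the tested genes did in RNA and 2.14% in density.

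TE sets the density against the RNA of the same gene and time. Lengths recovered from the Ribo-Seq and RNA-Seq values were the same, so reads outside the coding sequence are probably part of the Ribo-Seq values. The paper counted coding-sequence reads alone for translation, so its TE is another measure. TE was compared within genes only, and a changed share of reads outside the coding sequence would still move it. In the paper this share differed between its control, 6 h and 19 h Ribo-Seq libraries. NR4A1 was the member with a 2-fold higher TE, at each of the 4 times, beside 1.14%, 0.87%, 3.21% and 1.94% of the tested genes at 2, 4, 6 and 19 h. No member was 2-fold lower, and 1.2%, 0.998%, 5.74% and 6.14% of the tested genes changed either way. The ratio of Ribo-Seq to RNA-Seq FPKM of NR4A1 was 0.179 in the control and 0.862, 0.484, 0.497 and 0.39 in the treated libraries. The control was the low library and 2 h the high one, with TE changes of 2.15, 1.31, 1.35 and 1.00 on the log2 scale. All 4 values rest on the 38 Ribo-Seq reads of the control (SE 0.25 to 0.34), and with a floor of 5 FPKM none was 2-fold (-0.18, -0.0078, 0.039 and 0.039). With a pseudocount of 1 FPKM those at 4 and 19 h were not (0.86 and 0.72).

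IER5 had a ratio of 0.949 in the control and 1.43, 1.56, 1.47 and 1.49 in the treated libraries. Its TE was therefore higher by 0.59, 0.72, 0.63 and 0.65 on the log2 scale (SE 0.070 to 0.078), nearly the same at all 4 times, beside all-gene medians of 0.045, 0.18, 0.0021 and -0.067. EGR1 had TE changes of 0.66, 0.19, 0.84 and 0.35 (SE 0.058 to 0.069), with the high libraries at 2 and 6 h. MYC had TE changes of 0.46, 0.45 and 0.43 at 2, 4 and 6 h (SE 0.090 to 0.12) and 0.13 at 19 h, the last within its counting error. All these values share the control libraries, so their likeness across times is not independent. Against the 2 h libraries, the TE changes at 4 and 6 h were 0.13 and 0.040 for IER5 and -0.013 and -0.025 for MYC. For EGR1 they were -0.46 and 0.18. The TE of EGR3 at 2 h depended on the floor, with a change of -0.94 when floored and of 0.15 (SE 0.33) as deposited, so that a direction was not detectable at this depth. For KLF4 no TE change exceeded its counting interval, and for KLF6 and IER2 the changes lay between -0.093 and 0.37. The sliding cut-off passed 3 members in TE at 2 h (EGR1, EGR3, NR4A1), 3 at 4 h (EGR3, NR4A1, IER5), 1 at 6 h (NR4A1) and 0 at 19 h, beside 6.91%, 8.15%, 7.14% and 7.38% of the tested genes, and the EGR3 calls rest on the floor.

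**Figure D4:**
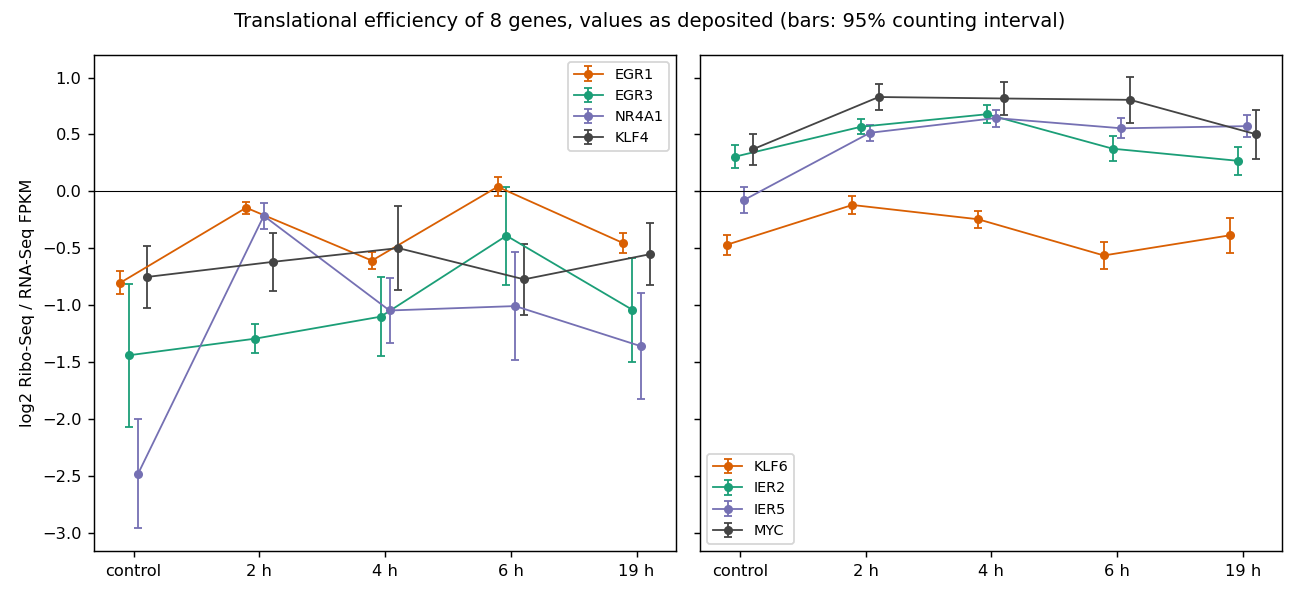
TE as log2 ratio of Ribo-Seq to RNA-Seq FPKM as deposited (vertical axis) in the control and at 2, 4, 6 and 19 h for 8 of the 9 genes, with bars for the 95% counting interval. NR4A1 climbs from a ratio of 0.179 in the control to 0.862 at 2 h, and IER5 moves from 0.949 to between 1.43 and 1.56 and stays there, while EGR2, with as little as 1 read in a library, is left out.

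Genes of the same pathway were counted from lists written from general knowledge, but with earlier results of these data known. The counts are therefore descriptive. Of 34 other immediate-early genes 30 were tested, and 19 of them were 2-fold higher in RNA at 2 h and none lower, beside 0.927% higher of all tested genes, with a median of 1.19. TRIB1, a pseudokinase, was 1 of the 19 and passed the filter through its 2 h libraries alone. Without the filter 21 of 34 were higher at 2 h, beside 0.657% of all 11258 transcripts. At 4 h 7 of 30 were higher and none lower (beside 1.41% and 0.684%), and at 6 h 3 were higher and none lower (beside 7.14% changed either way). At 19 h 3 were higher and 1 lower (beside 2.49% and 7.1%), and the medians at these times were 0.35, -0.012 and 0.14. BHLHE40, a transcriptional repressor, went from 6.24 FPKM to 51.1 FPKM at 2 h, and its log2 changes of 3.03, 1.94, 1.26 and 1.89 were high in every treated library. BTG2, an anti-proliferative gene that is itself a known p53 target, differed in its timing, with 2.15 FPKM in the control, 12.6 at 2 h and 64.1, 50.5 and 54.4 FPKM afterwards. ZFP36, whose product destabilises AU-rich mRNAs, was among the lowest of the list, with log2 changes of 0.18, 0.0038, -0.67 and -0.075.

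Among the 7 tested of 15 relatives of the EGR, NR4A, KLF and IER genes, 2 were 2-fold higher in RNA at 2 h and none lower (median 0.50), beside 0.927% higher of all tested genes, and without the filter 2 of 14 were. These were KLF10, a TGF-β-inducible repressor that rose from 23.9 to 112 FPKM and was back at 32.0 FPKM by 4 h, and IER5L, which went from 10.9 to 24.7 FPKM. KLF5 and KLF16 had the lowest mean changes and were below the control in RNA from 4 h on, with log2 changes of -0.91 and -0.50 at 4 h. Of the AP-1 subunits and ATF3, 5 of 8 were tested and 1 was 2-fold higher at 2 h beside the same 0.927%, or 3 of 8 without the filter. The tested one was JUNB, with RNA levels of 22.9, 151, 32.0, 36.4 and 40.3 FPKM. FOSL1, another AP-1 subunit, had 217, 382, 261, 84.1 and 117 FPKM, highest at 2 h and 2-fold below the control at 6 h (log2 change -1.37).

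Feedback inhibitors of the MAP kinases, the phosphatases and Sprouty-type proteins that are induced by the pathway they shut off, were 2-fold higher at 2 h in 4 of 9 tested genes, with a median of 0.82 and none lower, beside 0.927% higher of all tested genes. DUSP2 passed the filter through its 2 h libraries alone and so had to differ there, and without the filter 4 of 10 genes were higher, with a median of 0.75. DUSP2 went from 1.37 to 10.3 FPKM (log2 change 2.91) and DUSP5 reached 41.9 FPKM (1.80). From 4 h on none of the 9 passed 2-fold in RNA. Of all tested genes, 1.41% were higher and 0.684% lower at 4 h, 7.14% changed either way at 6 h, and 2.49% were higher and 7.1% lower at 19 h. Of the kinases and transcription factors upstream, such as SRF, ELK1 and the ERK kinases, 0 of 11 tested genes were 2-fold changed in RNA at any time. Their median was 0.028 at 2 h, when 0.941% of all tested genes changed 2-fold, and the shares at later times were those just given. In density, SRF was 2-fold higher at 2 h (log2 change 1.01, with 0.65 in RNA), beside 2.12% of all tested genes. RPS6KA3 was 2-fold lower in density at 6 h (-1.17), beside 13.3% changed either way. ELK3, an SRF partner, had the highest mean change of this list, with 0.20, 0.51, -0.074 and 0.028.

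**Figure D5:**
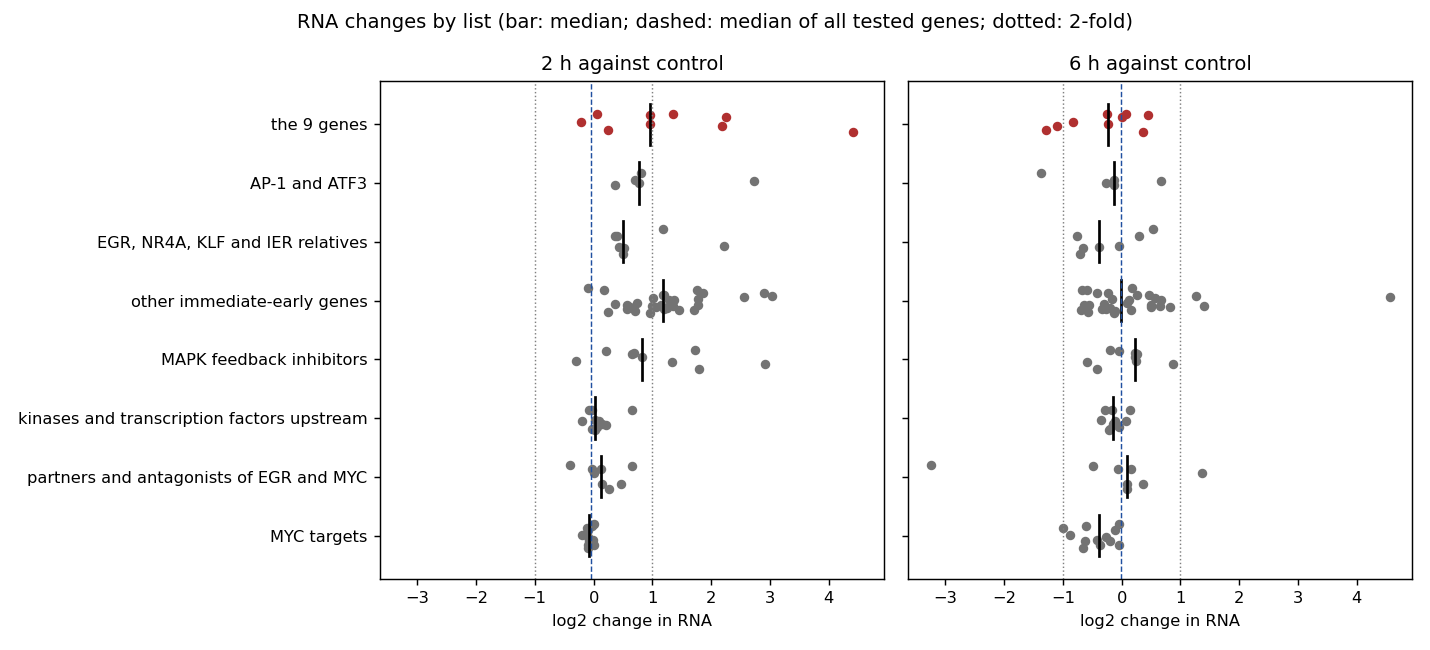
RNA log2 change against the control at 2 h (left) and 6 h (right) for the 9 genes (red) and the tested genes of 7 lists (grey), with black bars for list medians, a dashed line for the median of all tested genes and dotted lines at 2-fold. At 2 h the median of the 9 genes is 0.96 and that of the other immediate-early genes 1.19, and at 6 h these are -0.23 and -0.012.

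Lists of partners and antagonists of EGR and MYC and of genes that MYC is known to activate were counted in the same way. NAB2, a co-repressor that EGR1 induces, had RNA changes of 0.47, 0.16, 0.086 and 0.22 and density changes of 0.98, 0.66, 0.78 and 0.88. Of 8 tested partners and antagonists none was 2-fold changed in RNA at 2 h, beside 0.941% of all tested genes. MXD4, which competes with MYC for MAX, rose from 18.5 FPKM in the control to 47.5 and 48.6 FPKM at 6 and 19 h, and MXD3 of the same family fell from 18.5 to 1.96 and 1.23 FPKM. All 12 MYC targets were tested, and none was 2-fold changed in RNA up to 6 h. Of all tested genes 0.941% changed at 2 h, 1.41% were higher and 0.684% lower at 4 h, and 7.14% changed at 6 h. In density at 6 h 3 of 12 were lower and none higher, beside 13.3% changed either way. At 19 h 2 of 12 were lower in RNA, beside 7.1% of all tested genes (median -0.75), and 8 of 12 in density, beside 14.9% (median -1.09, against -0.19 for all tested genes). NOP56, a nucleolar protein of ribosome production, had RNA levels of 64.6, 59.5, 43.7, 32.4 and 27.0 FPKM from control to 19 h, and CAD, an enzyme of pyrimidine synthesis, had 25.2, 21.9, 18.1, 13.8 and 13.0 FPKM.

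Profiles of RNA and density over the 4 times were compared by Euclidean distance over 8 log2 changes, among the 8 members that were tested. EGR1 had as its nearest tested genes CTGF (distance 0.52), TRIB1 (0.79) and NFKBIA (0.797). For MYC these were NUP153 (0.66), COLEC12 (0.698) and NOLC1 (0.71). IER2 was nearest to NEDD9 (0.504), IER5 to IRF2BPL (0.72) and KLF4 to LPIN1 (0.89). NR4A1 and EGR3 had no close neighbour, with HES1 at 2.16 and JUNB at 2.44. Within the set the closest pairs were EGR1 with IER5 (1.04) and KLF6 with MYC (1.16). Each of the 8 tested members had a gene outside the set nearer to it than any other member.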

How the data were processed

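The authors aligned reads with Bowtie to protein-coding transcripts of 1 isoform per gene (Ensembl release 65, with hg19 as the build per the labels) and kept unique hits, so reads shared by near-identical genes were lost. The deposited values are FPKM with 3 decimals. Neither table states its assay by column, so the table named for Ribo-Seq was read as such and the other as RNA-Seq. The number of per-sample columns left out was 0. The study describes run effects and therefore took the control from within each run. No run is named in the labels. The paper's list of libraries, marked by run, holds the later times of nutlin-3a but not 2 and 4 h. Whether the libraries of 2 and 4 h share a run with the control was therefore not tested.

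Read numbers, lengths and library totals were worked out from the steps between low FPKM values, with lengths for 11239 transcripts (99.8%), the same from both tables for all 9 members. The recovery and the fold changes were tested on simulated data. Log2 ratios to the control of the same assay used a floor of 1 FPKM. The counting SE is the Poisson error of the read numbers on the log2 scale and belongs to the values as deposited. A value is called 2-fold at a log2 size of at least 1. Alternatives were another floor, a pseudocount, no floor and lists and ranks without the filter (both added after seeing the data), no filter or a mean of 20 FPKM, centring, the 2 h baseline and the study's sliding cut-off (set by the local SD in windows of 301 genes). Named genes are the members, per list up to 2 tested genes with the highest and 2 with the lowest mean RNA change, the nearest genes by profile (that of KLF6 is not reported here), and CDKN1A and MDM2. Members and lists were chosen with earlier results of these data known. Python 3.11.15, numpy 2.4.6, pandas 2.3.3, scipy 1.17.1 and matplotlib 3.10.9 were used.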

Additional observations from a re-analysis of the deposited data

Results flagged for a closer look

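The RNA of NR4A1 moved in opposite directions at different times, which singled it out. It was above the control at 2 h, by 2.19 on the log2 scale, and below it at 6 h, at -1.10. The value at 6 h was -0.86 with a pseudocount of 1 FPKM and -0.039 with a floor of 5 FPKM, and it did not pass the sliding cut-off. Each time is 1 library and both ratios share the control library, so this difference was not tested. The step from 2 to 4 h, which does not use the control, was -2.18, and that from 4 to 6 h was -1.11.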

How the results depend on the processing

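No paired analysis was possible because every group held 1 library and no result comes from a test. Counts of members changed 2-fold in either direction (4, 2, 2 and 3 in RNA, 6, 3, 1 and 2 in density and 1 each in TE at 2, 4, 6 and 19 h) depended on the settings as follows, and beyond the settings' own construction the cause was not tested. With a pseudocount of 1 FPKM, RNA gave 1, 1 and 1 at 4, 6 and 19 h, density 1 at 4 and 19 h, and TE 0 at 4 and 19 h. With a floor of 5 FPKM, RNA gave 0 at 4 h and 1 at 6 h, density 1 at 4 h, and TE 0 at 4, 6 and 19 h. With no floor, density gave 5, 3 and 4 at 4, 6 and 19 h and TE 2, 2, 3 and 2. Only 4 members had a mean of at least 20 FPKM in each assay, which gave 1, 0, 0 and 1 in RNA, 3 and 1 in density at 2 and 4 h, and 0 in TE at all times. With the 2 h baseline, RNA gave 4, 6 and 6, density 5, 7 and 7, and TE 0 at 4 and 6 h. The sliding cut-off gave 1 in RNA at 6 and 19 h, 0 in density at 6 and 19 h, and 3, 3 and 0 in TE at 2, 4 and 19 h. Centring on genes of like length gave 2 in TE at 2 h. Leaving out the filter could not change these counts, which cover all 9 measured genes.

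Directions of called values reversed with the 2 h baseline, which was the highest library of these genes: EGR3 RNA was -3.23 at 4 h and -3.34 at 19 h, NR4A1 density -3.01 at 4 h, IER5 density -0.18, -0.47 and -0.52 at 4, 6 and 19 h, and NR4A1 TE -0.83, -0.79 and -1.15. With a floor of 5 FPKM, NR4A1 TE was -0.18 at 2 h and -0.0078 at 4 h. Low read numbers in the Ribo-Seq control limit EGR2, EGR3 and NR4A1.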
